A study of Mus musculus with 11 samples.

Results

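Cyclins are the activating subunits of the cyclin-dependent kinases (CDKs), and their mRNAs rise and fall as a cell passes through its division cycle. The D-type cyclins act with CDK4 and CDK6 in G1, the E-type cyclins act with CDK2 at the start of DNA synthesis, and cyclin A2 and the B-type cyclins act with CDK2 and CDK1 through S phase, G2 and mitosis. In the embryonic brain, neural progenitor cells (NPCs) are the cells that cycle, and neurons have left the cycle, so the summed level of S, G2 and mitotic transcripts in a culture depends on how many cells divide as well as on the RNA of each dividing cell. In these bulk samples fewer cycling cells and less RNA per cycling cell cannot be told apart.

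The genes described here are 10 members of this system, chosen by name from the 53801 genes counted. *Ccnd1*, *Ccnd2* and *Ccnd3* stand for G1, *Ccne1*, *Ccne2* and *Cdk2* for the G1/S transition, and *Ccna2*, *Ccnb1*, *Ccnb2* and *Cdk1* for G2/M. Total RNA of NPC cultures from whole brains of E13.5 mouse embryos (C57BL/6 mixed with 129SV) was sequenced in 11 libraries, 1 per embryo and condition, to ask what changes when the endonuclease SMG6, a factor of nonsense-mediated mRNA decay (NMD), is removed. All cultures were *Smg6* Flox/Flox. The 3 Ctr libraries (embryos SMH_128, SMH_132 and SMH_133) were from cells with RosaCreER tg/+ and no 4-hydroxytamoxifen (4-OHT), the drug that activates CreER. The 4 Ctr + 4-OHT libraries (embryos SMH_125, SMH_126, SMH_129 and SMH_131) were from RosaCreER +/+ cells, which have no Cre, given 4-OHT. The 4 *Smg6*-iKO libraries (embryos SMH_127, SMH_128, SMH_132 and SMH_133) were from RosaCreER tg/+ cells given 4-OHT. By the labels 4-OHT was given at 1 µM for 3 days and the cells were at day 6 after its start. The published text has RNA taken 6 days after 4-OHT treatment in one place and 4-OHT present for all 6 days in another, so the length of exposure is not settled here. Against Ctr + 4-OHT the deletion cannot be told apart from activated CreER, and against Ctr it cannot be told apart from 4-OHT or from the CreER that 4-OHT activates. CreER at the Rosa26 locus is not limited to one cell type, and the cultures mixed cortex with ganglionic eminence.

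Each library held 26418249 to 33756875 counts. Whole-gene counts of *Smg6* were 69.4 to 79.4 CPM (counts scaled to library size after TMM normalisation) in Ctr, 66.5 to 72.3 CPM in Ctr + 4-OHT and 62.3 to 71.9 CPM in *Smg6*-iKO, with a log2 fold change of -0.059 (adjusted p = 0.703, edgeR) against Ctr + 4-OHT and -0.17 (adjusted p = 0.148) against Ctr. With the embryo as a block, the value against Ctr was -0.15 (adjusted p = 0.043) and passed the threshold. The deleted exons are not given in the sources used here, so these counts do not check the deletion. All 8 NPC markers (such as *Nes*, *Sox2* and *Pax6*) were above 1 CPM in every group. Their summed level was 5007 to 5199 CPM in Ctr, 4434 to 5440 CPM in Ctr + 4-OHT and 4309 to 4900 CPM in *Smg6*-iKO. The 8 neuron markers (such as *Tubb3* and *Dcx*), all above 1 CPM in every group, summed to 1893 to 2083, 1685 to 2830 and 2198 to 2536 CPM. The 5 astrocyte markers, all above 1 CPM in every group, summed to 1589 to 1948, 1612 to 1852 and 1316 to 1721 CPM. Most of that sum was *Slc1a3* (group means 1317, 1207 and 1028 CPM) and *Aldh1l1* (421, 418 and 387 CPM). *Gfap* went the other way (means 17.7, 29.1 and 44.3 CPM, with overlapping ranges), and *Aqp4* and *S100b* also had their highest mean in *Smg6*-iKO. The 7 oligodendrocyte lineage markers, also all above 1 CPM in every group, summed to 732 to 782, 760 to 1062 and 678 to 850.2 CPM, and the 5 fibroblast markers to 369 to 531, 308 to 887 and 274 to 1513 CPM. Microglial, endothelial and blood markers together stayed low, at sums of at most 3.79, 7.35 and 0.128 CPM, and the haemoglobin genes *Hbb-bt* and *Hba-a2* were at 0 in Ctr.

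The promoters of the G2/M genes are shown first, because 3 of these 4 genes passed the threshold in both comparisons with *Smg6*-iKO, and those of *Cdk2* and *Ccne1* are shown beside them. No window was found for *Ccna2*, which is among those 3, and *Ccnb2*, which is shown, is not among them. Promoter windows of 300 bases (250 before the annotated start and 50 after it) were found in RefSeq's GRCm38.p6 annotation for 6 of the 10 genes, *Ccnd3* (with 2 starts), *Ccne1*, *Cdk2*, *Ccnb1*, *Ccnb2* and *Cdk1*. As background, many genes of G2 and mitosis carry a cell cycle genes homology region (CHR), read by the DREAM and MuvB complexes, next to CCAAT boxes, read by NF-Y, while many genes of the G1/S transition carry E2F sites. The windows below, 5′ to 3′ on the gene's own strand (the minus strand for all 5), have in capitals every match, on either strand, to the letters of these motifs. For a CHR the letters searched were TTTGAA and, as the other form, TTCGAA. The CCAAT box was searched by the letters of its name, and an E2F site as TTTCCCGC, TTTCGCGC, TTTGCCGC or TTTGGCGC. No matches overlapped.
Ccnb1: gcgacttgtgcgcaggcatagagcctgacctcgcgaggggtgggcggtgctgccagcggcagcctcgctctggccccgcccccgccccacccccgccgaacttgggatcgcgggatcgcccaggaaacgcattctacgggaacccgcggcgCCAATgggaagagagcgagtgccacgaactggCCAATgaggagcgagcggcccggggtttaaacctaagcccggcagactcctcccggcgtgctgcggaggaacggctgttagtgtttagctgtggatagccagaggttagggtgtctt
Ccnb2: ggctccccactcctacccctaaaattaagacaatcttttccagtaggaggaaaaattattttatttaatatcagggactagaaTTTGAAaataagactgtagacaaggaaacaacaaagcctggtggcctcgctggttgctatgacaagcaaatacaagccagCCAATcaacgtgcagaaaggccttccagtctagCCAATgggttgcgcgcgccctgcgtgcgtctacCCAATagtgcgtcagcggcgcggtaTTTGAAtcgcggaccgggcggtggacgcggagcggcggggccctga
Cdk1: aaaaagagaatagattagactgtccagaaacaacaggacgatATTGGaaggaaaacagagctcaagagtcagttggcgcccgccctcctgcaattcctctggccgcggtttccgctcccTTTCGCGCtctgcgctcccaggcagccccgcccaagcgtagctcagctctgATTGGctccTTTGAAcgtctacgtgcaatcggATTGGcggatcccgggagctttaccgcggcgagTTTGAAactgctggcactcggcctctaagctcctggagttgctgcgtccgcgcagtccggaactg
Cdk2: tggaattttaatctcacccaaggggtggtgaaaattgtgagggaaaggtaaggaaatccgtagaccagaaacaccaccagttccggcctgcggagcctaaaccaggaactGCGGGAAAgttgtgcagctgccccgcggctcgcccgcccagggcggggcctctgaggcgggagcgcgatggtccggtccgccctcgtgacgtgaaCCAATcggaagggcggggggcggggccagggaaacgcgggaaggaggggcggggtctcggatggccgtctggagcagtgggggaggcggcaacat
Ccne1: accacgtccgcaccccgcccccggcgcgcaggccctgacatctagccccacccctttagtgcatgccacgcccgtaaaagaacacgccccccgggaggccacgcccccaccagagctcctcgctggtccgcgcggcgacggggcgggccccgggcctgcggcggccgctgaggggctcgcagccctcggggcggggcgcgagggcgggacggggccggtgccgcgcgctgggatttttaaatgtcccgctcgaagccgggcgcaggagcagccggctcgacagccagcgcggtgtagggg

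The *Ccnb1* window (chr13:100786437-100786736) held 2 CCAAT boxes, which began 99 and 67 bases before the start, and no CHR of these letters. The *Ccnb2* window (chr9:70421505-70421804) held 3 CCAAT boxes, beginning 87, 54 and 21 bases before the start, and 2 CHR matches, one 167 bases before it and one 4 bases after it. The *Cdk1* window (chr10:69352863-69353162) held 3 CCAAT boxes on the opposite strand, at 208, 80 and 48 bases before the start, 2 CHR matches at 71 and 15 bases before it, and 1 E2F match between the first and the second of those boxes. The *Cdk2* window (chr10:128705002-128705301) held 1 CCAAT box at 45 bases and 1 E2F match, on the opposite strand, at 140 bases before the start. The *Ccne1* window (chr7:38107441-38107740) held none of these letters, and of the 2 *Ccnd3* windows 1 held a single CCAAT box. Of all 32851 promoter windows in the RefSeq table, 37.4% held a CCAAT box, 19.2% a CHR, 2.26% an E2F match and 7.52% both a CHR and a CCAAT box. These matches describe the letters in the windows and are not measured sites.

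In every sentence below that lists values per library, the embryos stand in the order SMH_128, SMH_132 and SMH_133 for Ctr, SMH_125, SMH_126, SMH_129 and SMH_131 for Ctr + 4-OHT, and SMH_127, SMH_128, SMH_132 and SMH_133 for *Smg6*-iKO. Fold changes are log2 values with standard errors from edgeR's quasi-likelihood test, and adjusted p is Benjamini-Hochberg adjusted over all genes tested, with 0.05 as the threshold. The two-sided exact permutation test of a single gene over libraries cannot give a p below 0.0286 in any of the 3 comparisons.

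The G2/M genes were lower in *Smg6*-iKO. Against Ctr + 4-OHT, 3 of the 4 (*Ccna2*, *Ccnb1* and *Cdk1*) fell to 0.733, 0.739 and 0.747 of the control level, and against Ctr all 4 fell, to between 0.699 and 0.735 of it. None of the 4 differed past the threshold between the control groups. *Ccna2*, *Ccnb1* and *Cdk1* were the only members that passed the threshold against Ctr + 4-OHT in the main fit, 3 of 10, all lower. The main fit used edgeR after the filter on low counts, on the libraries of the groups compared. There 1.17% of the 17558 genes tested passed and 0.416% passed as lower. Against Ctr, 5 of 10 members passed in the main fit, all lower, with *Cdk2* as the fifth, where 9.25% of 17974 genes passed and 4.98% passed as lower. DESeq2 called 6 members in each comparison, adding *Ccnb2*, *Ccne2* and *Cdk2* against Ctr + 4-OHT and *Ccne2* against Ctr. Over all genes DESeq2 called 873 and 2421. All 10 members passed the filter on low counts in each comparison.

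*Ccna2* encodes cyclin A2, which binds CDK2 during S phase and CDK1 on the way to mitosis (ENSMUSG00000027715, chr3:36564865-36572150, minus strand). *Ccna2* was at 291, 284 and 279 CPM in Ctr, at 263, 267, 329 and 277 CPM in Ctr + 4-OHT, and at 198, 236, 195 and 198 CPM in *Smg6*-iKO. Every *Smg6*-iKO library lay below every control library, embryo SMH_128 was the highest of the *Smg6*-iKO libraries, and embryo SMH_129 was the highest of all 11. Mean ± SD was 207 ± 19.8 CPM in the 4 *Smg6*-iKO libraries, beside 285 ± 5.88 CPM in the 3 Ctr and 284 ± 30.8 CPM in the 4 Ctr + 4-OHT libraries. The log2 fold change was -0.45 ± 0.088 (SE, adjusted p = 0.0425) against Ctr + 4-OHT and -0.46 ± 0.071 (SE, adjusted p = 0.00534) against Ctr by edgeR, and the exact permutation test gave p = 0.0286 in both, the smallest it can give. With levels scaled to library size alone, the exact permutation p against Ctr was 0.0571.

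*Ccnb1* encodes cyclin B1, the main partner of CDK1 at mitotic entry (ENSMUSG00000041431, chr13:100778650-100786570, minus strand). *Ccnb1* was at 71.8, 73.1 and 65.0 CPM in Ctr, at 66.1, 64.8, 79.5 and 64.5 CPM in Ctr + 4-OHT, and at 47.0, 55.3, 49.4 and 50.2 CPM in *Smg6*-iKO. All 4 *Smg6*-iKO libraries again lay below all 7 controls, with embryo SMH_128 highest among the *Smg6*-iKO libraries and embryo SMH_129 highest among the controls. *Ccnb1* changed by a log2 value of -0.44 ± 0.082 (SE, adjusted p = 0.0369) against Ctr + 4-OHT and -0.47 ± 0.07 (SE, adjusted p = 0.00452) against Ctr by edgeR (exact permutation p = 0.0286 in both). Of the 50-base windows of *Ccnb1* transcripts, 23.4% also occur in transcripts of genes at other places, mainly the pseudogenes *Ccnb1-ps*, *Gm12856*, *Gm8416* and *Gm4870*, and reads from such windows were not counted if they mapped to more than 1 position. *Ccna2*, *Ccne2*, *Ccnd1*, *Ccnd2* and *Ccnd3* overlap annotated genes on the opposite strand, and the counting used the strand.

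*Ccnb2* encodes the second B-type cyclin of dividing somatic cells (ENSMUSG00000032218, chr9:70407692-70421547, minus strand). *Ccnb2* was at 71.0, 68.9 and 58.4 CPM in Ctr, at 57.8, 62.3, 67.3 and 56.4 CPM in Ctr + 4-OHT, and at 39.8, 57.8, 46.6 and 40.7 CPM in *Smg6*-iKO. The *Smg6*-iKO library of embryo SMH_128 reached the lower end of the Ctr + 4-OHT values, above that of embryo SMH_131 and just below that of embryo SMH_125, while the other 3 lay below every control. Relative to its mean, the spread within *Smg6*-iKO was the widest of the 4 G2/M genes, with an SD of 8.28 CPM on a mean of 46.2 CPM (n = 4). By edgeR the log2 fold change was -0.39 ± 0.11 (SE, adjusted p = 0.132) against Ctr + 4-OHT, which did not pass the threshold, and -0.52 ± 0.12 (SE, adjusted p = 0.0283) against Ctr, which did. The exact permutation test gave p = 0.0571 in both comparisons.

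*Cdk1* encodes the kinase that drives mitosis (ENSMUSG00000019942, chr10:69335146-69352938, minus strand). *Cdk1* was at 169, 179 and 175 CPM in Ctr, at 166, 160.3, 198 and 166 CPM in Ctr + 4-OHT, and at 119, 138, 125.6 and 129.4 CPM in *Smg6*-iKO. No *Smg6*-iKO value reached a control value, and the *Smg6*-iKO library of embryo SMH_128 and the Ctr + 4-OHT library of embryo SMH_129 were once more the highest of their groups. Its log2 fold change was -0.42 ± 0.076 (SE, adjusted p = 0.0313) against Ctr + 4-OHT and -0.44 ± 0.059 (SE, adjusted p = 0.00279) against Ctr by edgeR (exact permutation p = 0.0286 in both).

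**Figure D1:**
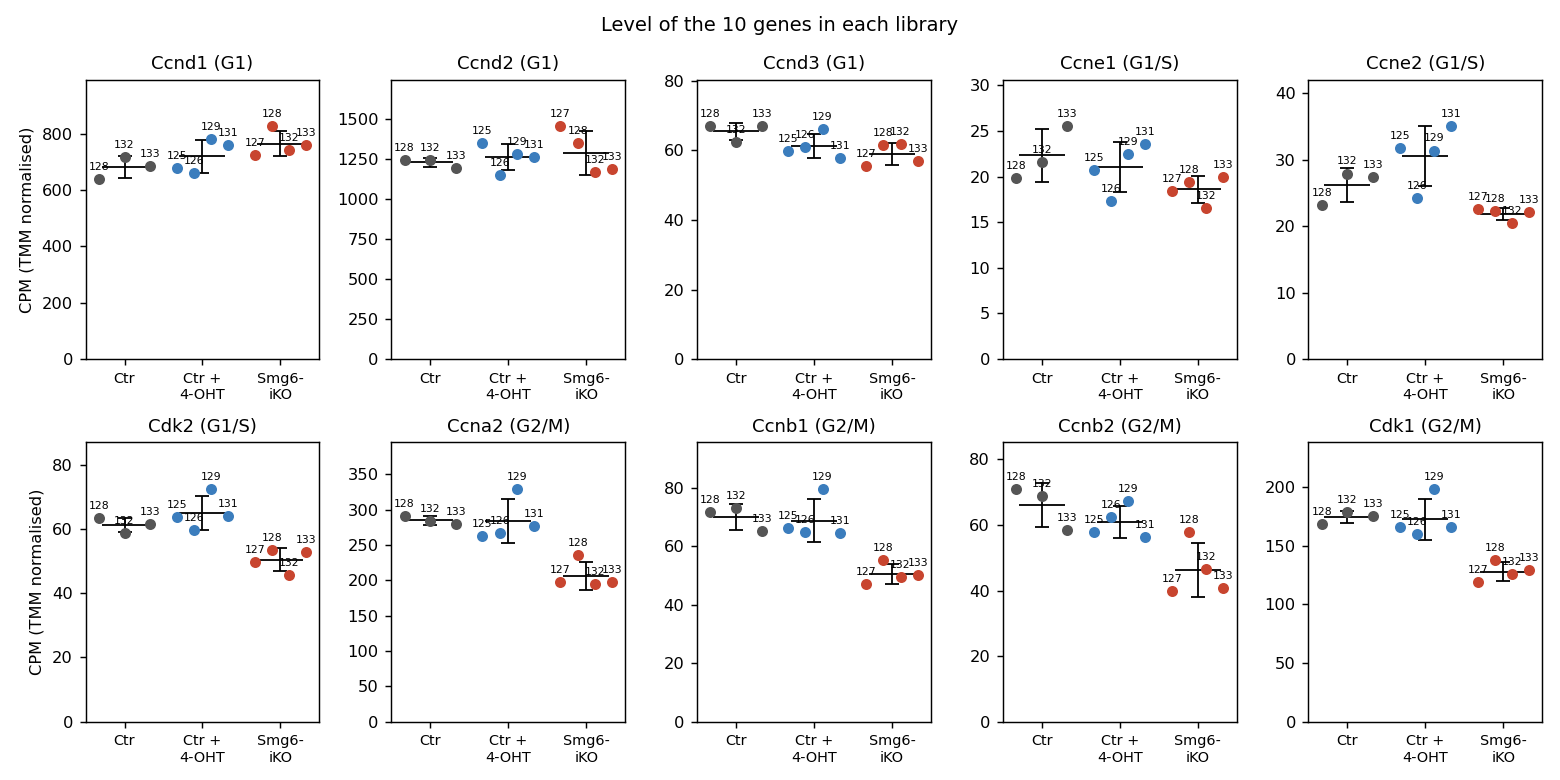
Level of each gene in CPM after TMM normalisation (vertical axes from 0) in the 3 Ctr, 4 Ctr + 4-OHT and 4 Smg6-iKO libraries, with the phase in brackets, the number of each embryo (the 129 of SMH_129, for example) above its point, and the mean and SD as a black bar. For Ccna2, Ccnb1, Cdk1, Cdk2 and Ccne2 all 4 Smg6-iKO points lie below all control points, and for Ccnd1 and Ccnd2 they do not.

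The calls against Ctr + 4-OHT changed with the libraries used, for the members and for all genes. Leaving out embryo SMH_125 or SMH_131 of Ctr + 4-OHT, or embryo SMH_127, SMH_132 or SMH_133 of *Smg6*-iKO, gave 0 members past the threshold, and over all genes 66 to 111 passed in these 5 fits beside 206 with all libraries. Without embryo SMH_126 of Ctr + 4-OHT the members that passed were *Cdk1* and *Ccne2*, and without embryo SMH_129 they were *Ccnb1* and *Cdk1*. Without embryo SMH_128 of *Smg6*-iKO 4 members passed, namely *Ccna2*, *Ccnb1*, *Ccnb2* and *Cdk1*. Over all genes at most 174 passed in any of these 3 fits. The fold changes moved less than the calls did: over these 8 fits the log2 fold change ranged from -0.52 to -0.37 for *Ccna2*, from -0.49 to -0.36 for *Ccnb1*, from -0.52 to -0.33 for *Ccnb2* and from -0.46 to -0.35 for *Cdk1*. Against Ctr, *Ccna2*, *Ccnb1* and *Cdk1* passed in all 7 fits with 1 library left out, *Ccnb2* in 2, *Cdk2* in 1 and *Ccne2* in 1 (without embryo SMH_128 of Ctr), and the number of members past the threshold ran from 3 to 5. It was 3 without embryo SMH_132 of Ctr or embryo SMH_127, SMH_132 or SMH_133 of *Smg6*-iKO.

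Marker sums moved with the G2/M genes in some libraries and not in others. The Ctr + 4-OHT library of embryo SMH_129, highest for all 4 in its group, had the highest NPC marker sum of the 11 libraries (5440 CPM) and the lowest neuron marker sum (1685 CPM), and the *Smg6*-iKO library of embryo SMH_128 had the highest NPC marker sum of its group (4900 CPM, against 4309 to 4369 CPM). Every *Smg6*-iKO library had a lower NPC marker sum and a higher neuron marker sum than every Ctr library. Against Ctr + 4-OHT both sums overlapped. Of the 8 NPC markers only *Hes5*, a Notch target, did not overlap there, where 5.77% of all genes tested lay below without overlap. *Hes5* was at 26.4 to 38.2 CPM in *Smg6*-iKO, 43.4 to 66.7 CPM in Ctr + 4-OHT and 62.6 to 99.3 CPM in Ctr. Against Ctr, *Sox2*, *Pax6*, *Fabp7*, *Sox1* and *Hes5* all lay below every library, where 11.9% of all genes did so, and *Nes*, *Vim* and *Hes1* overlapped. The Ctr + 4-OHT libraries of embryos SMH_125 and SMH_131 had neuron marker sums of 2830 and 2628 CPM, above every *Smg6*-iKO library, and NPC marker sums of 4434 and 4536 CPM, below that of embryo SMH_128 of *Smg6*-iKO, while *Ccna2* was at 263 and 277 CPM there and at 236 CPM in the latter. The part of these sums in the fall was not tested in either comparison.

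The 3 genes of the G1/S transition were also lower in *Smg6*-iKO on average, with log2 fold changes of -0.28 to -0.26 against Ctr beside -0.52 to -0.44 for the G2/M genes. Against Ctr + 4-OHT their log2 fold changes ran from -0.48 to -0.17 beside -0.45 to -0.39 for the G2/M genes, and *Ccne2* had the lowest value of the 10 members. None of the 3 passed the threshold against Ctr + 4-OHT, and against Ctr *Cdk2* alone passed without the embryo block, while in the blocked fit all 3 did (adjusted p = 0.0266 for *Ccne1*, 0.0157 for *Ccne2* and 0.00164 for *Cdk2*, edgeR).

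*Cdk2* encodes the kinase partner of cyclins E and A (ENSMUSG00000025358, chr10:128697939-128705031, minus strand). *Cdk2* was at 63.3, 58.9 and 61.4 CPM in Ctr, at 63.6, 59.8, 72.4 and 63.9 CPM in Ctr + 4-OHT, and at 49.8, 53.4, 45.8 and 52.9 CPM in *Smg6*-iKO. All 4 *Smg6*-iKO libraries lay below all 7 controls. By edgeR the log2 fold change was -0.35 ± 0.075 (SE, adjusted p = 0.0566) against Ctr + 4-OHT, just short of the threshold, and -0.28 ± 0.067 (SE, adjusted p = 0.0299) against Ctr. The exact permutation test gave p = 0.0286 in both.

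*Ccne2* encodes cyclin E2 (ENSMUSG00000028212, chr4:11191351-11204779, plus strand). *Ccne2* was at 23.2, 27.9 and 27.5 CPM in Ctr, at 31.7, 24.3, 31.4 and 35.0 CPM in Ctr + 4-OHT, and at 22.6, 22.3, 20.4 and 22.1 CPM in *Smg6*-iKO. The *Smg6*-iKO libraries were tightly grouped below every control, although by a small margin in Ctr, where embryo SMH_128 had the lowest value. Cyclin E2 mRNA had a log2 fold change of -0.48 ± 0.10 (SE, adjusted p = 0.0582) against Ctr + 4-OHT and -0.26 ± 0.078 (SE, adjusted p = 0.0607) against Ctr by edgeR, neither past the threshold in this main fit, with an exact permutation p = 0.0286 in both (0.0857 against Ctr with levels scaled to library size alone). Mean ± SD was 30.6 ± 4.54 CPM over the 4 Ctr + 4-OHT libraries beside 26.2 ± 2.59 CPM over the 3 Ctr libraries, a log2 difference of 0.22 ± 0.12 (SE, adjusted p = 0.678) by edgeR between the control groups.

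*Ccne1* encodes cyclin E1 (ENSMUSG00000002068, chr7:38097984-38107534, minus strand). *Ccne1* was at 19.9, 21.6 and 25.5 CPM in Ctr, at 20.7, 17.3, 22.5 and 23.6 CPM in Ctr + 4-OHT, and at 18.4, 19.4, 16.6 and 19.9 CPM in *Smg6*-iKO. The groups overlapped in both comparisons. The log2 fold change was -0.17 ± 0.10 (SE, adjusted p = 0.451), with a 95% interval of -0.37 to 0.033, against Ctr + 4-OHT and -0.26 ± 0.097 (SE, adjusted p = 0.112), with an interval of -0.45 to -0.072, against Ctr by edgeR. The exact permutation test gave p = 0.171 and p = 0.0571.

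None of the 3 D-type cyclins passed the threshold in either comparison without the embryo block, with which *Ccnd1* passed as higher against Ctr (adjusted p = 0.0221, edgeR), and *Ccnd1* and *Ccnd2* had log2 fold changes above 0 in both.

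*Ccnd1* encodes cyclin D1, which links growth factor signals to RB phosphorylation in G1 (ENSMUSG00000070348, chr7:144929931-144939925, minus strand). *Ccnd1* was at 640.1, 717 and 687 CPM in Ctr, at 677, 662, 782 and 759.8 CPM in Ctr + 4-OHT, and at 726, 827, 744 and 761 CPM in *Smg6*-iKO. The *Smg6*-iKO libraries lay above every Ctr library but overlapped with Ctr + 4-OHT. The log2 fold change was 0.097 ± 0.074 (SE, adjusted p = 0.556), with a 95% interval of -0.049 to 0.24, against Ctr + 4-OHT and 0.17 ± 0.064 (SE, adjusted p = 0.124), with an interval of 0.041 to 0.29, against Ctr by edgeR. The exact permutation test gave p = 0.257 and p = 0.0571.

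*Ccnd2* encodes cyclin D2, the D-type cyclin known for its part in the expansion of intermediate progenitors in the cortex (ENSMUSG00000000184, chr6:127125162-127152193, minus strand). *Ccnd2* was at 1246, 1243 and 1196 CPM in Ctr, at 1349, 1151, 1282 and 1264 CPM in Ctr + 4-OHT, and at 1455, 1349, 1167 and 1188 CPM in *Smg6*-iKO. The *Smg6*-iKO group held both the highest value of all, in embryo SMH_127, and values below most controls, in embryos SMH_132 and SMH_133. Its log2 fold change was 0.043 ± 0.086 (SE, adjusted p = 0.848), with an interval of -0.13 to 0.21, against Ctr + 4-OHT and 0.07 ± 0.078 (SE, adjusted p = 0.61), with an interval of -0.083 to 0.22, against Ctr by edgeR. Its sign was not stable, since leaving out embryo SMH_127 of *Smg6*-iKO turned the first of these to -0.021.

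*Ccnd3* encodes cyclin D3 (ENSMUSG00000034165, chr17:47505051-47599691, plus strand). It ranged from 62.5 to 67.0 CPM in Ctr, from 57.8 to 66.2 CPM in Ctr + 4-OHT and from 55.6 to 61.8 CPM in *Smg6*-iKO. The *Smg6*-iKO libraries lay below the Ctr libraries by less than 1 CPM at the nearest pair and overlapped with Ctr + 4-OHT. *Ccnd3* had a log2 fold change of -0.043 ± 0.064 (SE, adjusted p = 0.787) against Ctr + 4-OHT and -0.15 ± 0.062 (SE, adjusted p = 0.149) against Ctr by edgeR, with exact permutation p = 0.4 and p = 0.0857.

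Over all 10 members, 5 did not overlap with Ctr + 4-OHT and lay below it (*Ccne2*, *Cdk2*, *Ccna2*, *Ccnb1* and *Cdk1*), where 5.77% of all genes tested did so. Against Ctr, 7 did not overlap and lay below, where 11.9% of all genes did so, and 1, *Ccnd1*, lay above, where 11.5% did so. The median log2 fold change over the 10 members was -0.37 against Ctr + 4-OHT and -0.27 against Ctr, beside 0.012 and 0.0055 over all genes tested. The 2 comparisons share the *Smg6*-iKO libraries. Whether the G2/M genes fell by more than the G1 genes was not itself tested.

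**Figure D2:**
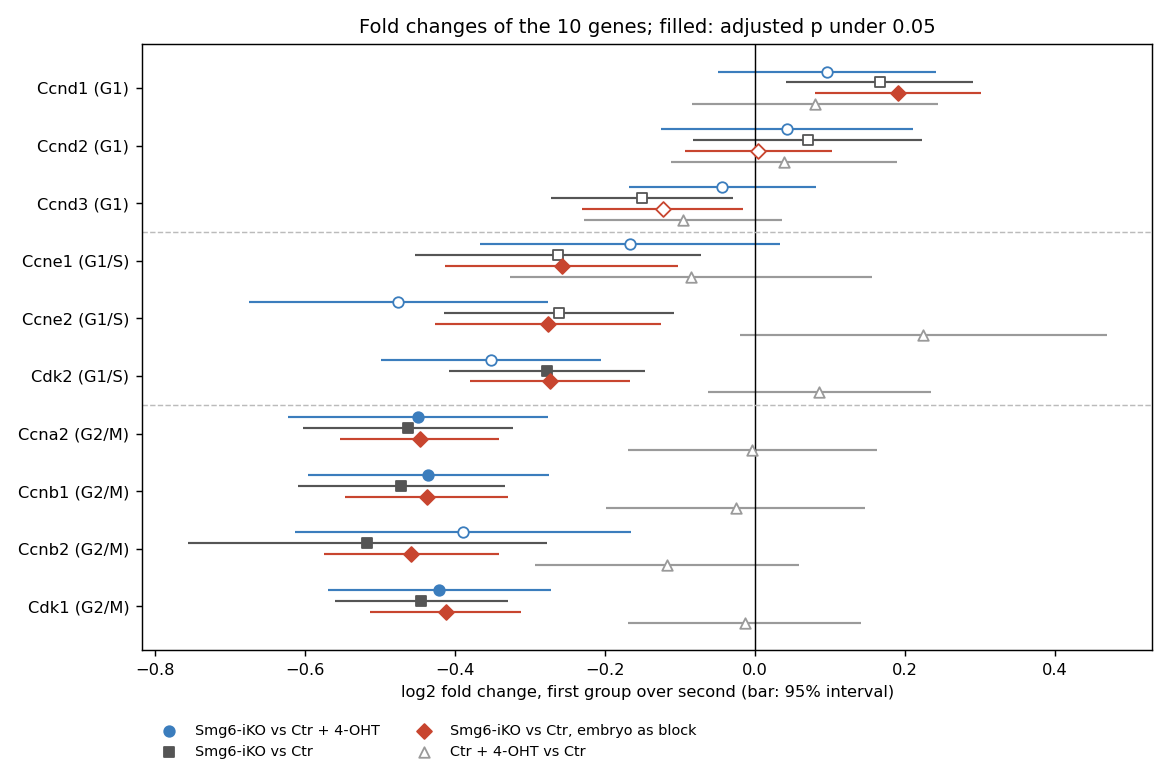
Log2 fold change of each gene (horizontal axis, first group over second) with its 95% interval, for Smg6-iKO against Ctr + 4-OHT (circles), Smg6-iKO against Ctr without and with the embryo as a block (squares and diamonds) and Ctr + 4-OHT against Ctr (triangles), with filled symbols where the adjusted p is under 0.05. The 4 G2/M genes lie between -0.52 and -0.39 in the comparisons with Smg6-iKO, the D-type cyclins lie near or above 0 apart from Ccnd3, and the triangles of the G2/M genes lie between -0.12 and -0.0034.

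The control groups, which differ in CreER and in 4-OHT, did not differ past the threshold in any member (0 of 10, where 0.221% of the 17665 genes tested passed by edgeR and 1462 genes had an unadjusted p under 0.05). No member had an unadjusted p under 0.05 there, and DESeq2 also called 0. The values of the 2 groups overlapped for all 10. Ctr + 4-OHT differed from Ctr on the log2 scale by -0.0034 ± 0.084 (SE, adjusted p = 0.993) for *Ccna2*, -0.014 ± 0.079 (SE, adjusted p = 0.97) for *Cdk1* and -0.12 ± 0.09 (SE, adjusted p = 0.752) for *Ccnb2* by edgeR, and the 95% interval for *Ccna2* was -0.17 to 0.16. The members' median was -0.0085.

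Embryos SMH_128, SMH_132 and SMH_133 each gave a Ctr and a *Smg6*-iKO library, so the change could be read within an animal. In all 3 embryos *Ccna2*, *Ccnb1*, *Ccnb2*, *Cdk1*, *Cdk2*, *Ccne1*, *Ccne2* and *Ccnd3* were lower in the *Smg6*-iKO library, and *Ccnd1* was higher. *Ccnd2* was lower in 2 embryos and higher in embryo SMH_128. For *Ccna2* the change on the log2 scale was -0.30 in embryo SMH_128, -0.55 in embryo SMH_132 and -0.50 in embryo SMH_133, and for *Cdk1* it was -0.29, -0.51 and -0.44. *Ccnb2* changed by -0.30, -0.56 and -0.52. Embryo SMH_128 had the smallest fall for *Ccna2*, *Ccnb2*, *Cdk1*, *Ccne1* and *Ccne2*, where *Ccne1* changed by only -0.034 and *Ccne2* by -0.061. It also had the largest rise of *Ccnd1*, 0.37, beside 0.053 in embryo SMH_132 and 0.15 in embryo SMH_133.

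With the embryo as a block, 8 members passed the threshold against Ctr, 7 of them lower and *Ccnd1* higher. Embryo SMH_127 has no Ctr library, so this fit rests on embryos SMH_128, SMH_132 and SMH_133. That fit called 21.4% of all genes, 11.2% as lower and 10.3% as higher. *Ccna2* then had a log2 fold change of -0.45 ± 0.054 (SE, adjusted p = 1.76e-05), *Ccnb2* of -0.46 ± 0.059 (SE, adjusted p = 3.56e-05) and *Cdk1* of -0.41 ± 0.051 (SE, adjusted p = 2.38e-05) by edgeR. The members whose call changed were *Ccne1* at -0.26 ± 0.079 (SE, adjusted p = 0.0266), *Ccne2* at -0.28 ± 0.077 (SE, adjusted p = 0.0157) and *Ccnd1* at 0.19 ± 0.056 (SE, adjusted p = 0.0221) by edgeR. *Ccnd2* and *Ccnd3* still did not pass.

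**Figure D3:**
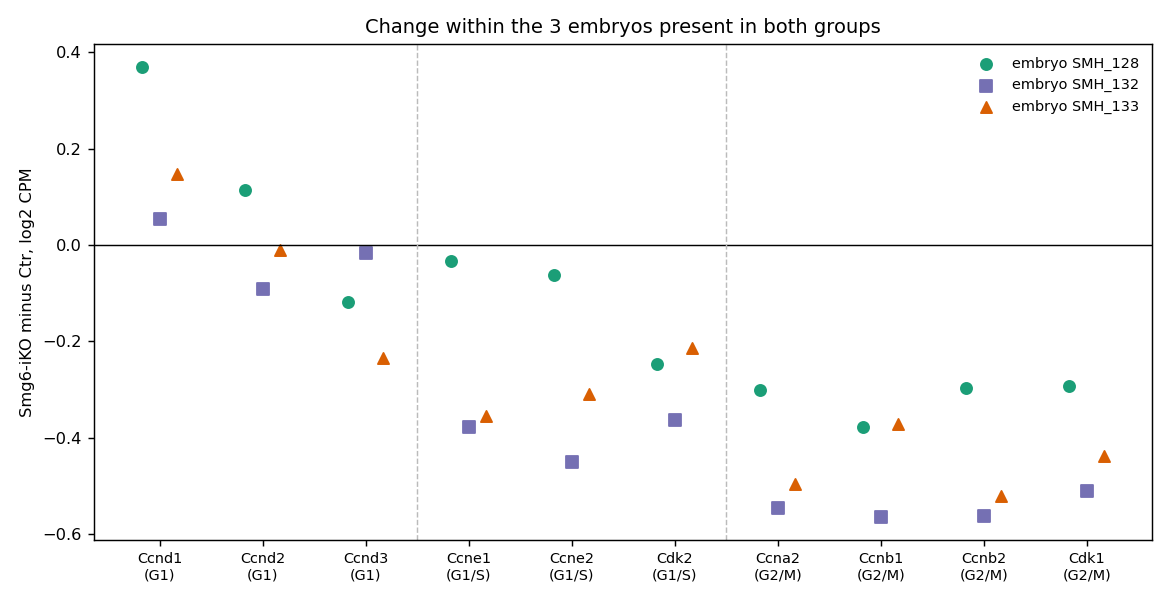
Smg6-iKO minus Ctr in log2 CPM (vertical axis) for each gene (horizontal axis) within embryos SMH_128, SMH_132 and SMH_133, 1 point per embryo. All 3 points lie below 0 for the G1/S and G2/M genes and for Ccnd3, all 3 lie above 0 for Ccnd1, and embryo SMH_128 lies nearest to 0 for Ccna2, Ccnb2 and Cdk1.

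The order of the levels can be compared only per length, as CPM per kb of exon. In Ctr it ran from *Ccnd1* (145 ± 8.23 CPM per kb, SD, n = 3) and *Ccnd2* (130.6 ± 2.97) through *Ccna2* (69.8 ± 1.44), *Ccnb2* (43.2 ± 4.41), *Cdk1* (35.3 ± 1.02) and *Ccnb1* (16.6 ± 1.03) to *Cdk2* (9.84 ± 0.36), *Ccne1* (8.39 ± 1.08), *Ccne2* (7.50 ± 0.74) and *Ccnd3* (7.46 ± 0.29). The last 3 overlapped with one another in Ctr, and *Cdk2* overlapped with *Ccne1*. *Ccnd1* and *Ccnd2* did not overlap in Ctr but did in the other groups, as did *Ccnb2* and *Cdk1*. In *Smg6*-iKO the order of the means was the same down to *Cdk2*. The exon length merges all annotated transcripts, of which *Ccnd3* has 21 over 8775 bases and *Ccnb2* has 1 over 1531 bases, so the scaled level of a gene with many transcripts is an underestimate relative to the others.

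**Figure D4:**
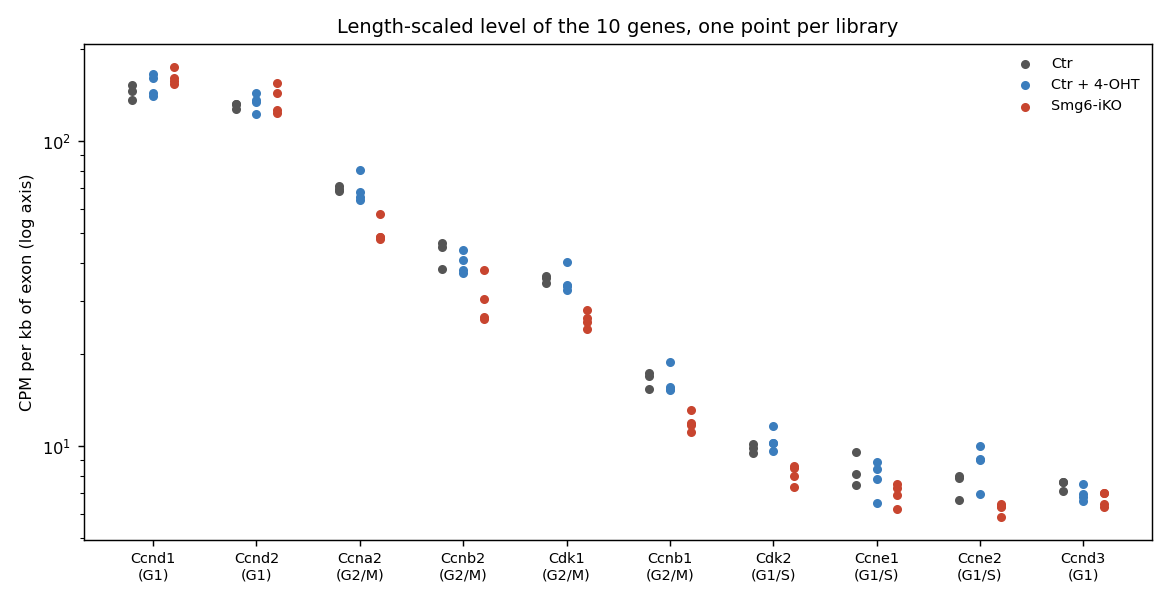
Level of each gene in CPM per kb of exon (log axis), 1 point per library, with the genes ordered by their mean in Ctr. Ccnd1 and Ccnd2 stand highest, at 122 to 176 CPM per kb, and the 3 lowest genes overlap with one another.

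The share of each gene within its family was taken on the length-scaled levels. *Ccnd1* was 51.1% ± 1.66, 52.0% ± 2.16 and 53.1% ± 2.82 (SD) of the D-type sum in Ctr (n = 3), Ctr + 4-OHT (n = 4) and *Smg6*-iKO (n = 4), with ranges that overlapped. *Ccnd3* was 2.64%, 2.38% and 2.20%, and its ranges did not overlap between Ctr (2.44% to 2.76%) and *Smg6*-iKO (2.01% to 2.436%). *Ccnb1* was 27.8%, 29.0% and 28.6% of the B-type sum, with ranges that overlapped. *Cdk1* was 78.2%, 77.0% and 76.2% of the sum of *Cdk1* and *Cdk2*, again with overlapping ranges. *Ccne1* was 50.3% to 54.9% of the E-type sum in Ctr and 51.6% to 54.2% in *Smg6*-iKO, but 46.2% to 48.4% in Ctr + 4-OHT, where it did not overlap with either.

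Across the 11 libraries the 4 G2/M genes varied together, with Pearson r of log2 CPM between 0.87 and 0.98 for their 6 pairs, and between 0.56 and 0.89 once each group's mean was removed. *Cdk2* went with *Ccna2* at r = 0.93 (0.77 within groups), more closely than with *Ccne1* (0.67, and 0.58 within groups). *Ccne1* and *Ccne2* had r = 0.74 over all libraries and 0.85 within groups. *Ccnd1* was at -0.26 with *Ccna2* over all libraries but at 0.73 within groups. These are descriptions over 11 libraries that share their normalisation and the group differences.

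The genes whose pattern was most like the mean of the G2/M members were *Top2a*, a topoisomerase that untangles chromosomes (r = 0.995 over 11 libraries), *Kif4*, a chromosome kinesin (0.991), *Spc25*, a kinetochore subunit (0.983), *Cdca3* (0.982) and *Cep55*, which acts in the last step of cell separation (0.982). *Top2a* had a log2 fold change of -0.45 against Ctr + 4-OHT and -0.48 against Ctr. The genes were picked by this correlation with group differences left in, so a fall like that of the members follows from the choice. Most like the mean of the G1/S members were *Topbp1*, a replication and checkpoint factor (0.988), *Dut*, the dUTPase that keeps uracil out of DNA (0.982), *Nasp*, a histone chaperone (0.977), the chaperonin subunit *Cct7* (0.968) and *Supt16*, a subunit of the histone chaperone FACT (0.965). For the D-type cyclins the closest were *Tamm41* (0.954), *Wdr35* (0.933) and *Timmdc1* (0.888) for *Ccnd1*, *Fstl1* (0.912), *Inka1* (0.902) and *Itih5* (0.895) for *Ccnd2*, and *Ubxn1* (0.938), *Pgls* (0.938) and *Rabl6* (0.936) for *Ccnd3*.

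The other genes of the cyclin-CDK system were counted on lists of their own. Of 32 CDK partners and regulators, 0 passed against Ctr + 4-OHT, where 1.17% of all genes did, and 13 passed against Ctr, all lower, where 4.98% of all genes passed as lower. With the embryo as a block 15 passed, all lower, where that fit called 11.2% of all genes as lower. The list's median log2 fold change was -0.13 and -0.16, with 27 and 26 of the 32 below 0, and 0 passed between the control groups. *Cdk4* and *Cdk6*, the kinases of the D-type cyclins, did not pass in either comparison. *Cdk4* had a log2 fold change of -0.23 (adjusted p = 0.0938) against Ctr + 4-OHT and -0.15 (adjusted p = 0.142) against Ctr by edgeR, and *Cdk6* had 0.22 (adjusted p = 0.138) and 0.077 (adjusted p = 0.457).

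The 13 regulators that fell against Ctr have several roles. The first group controls the phosphorylation of CDK1, namely the phosphatases *Cdc25b* (log2 fold change -0.42) and *Cdc25c* (-0.48), the inhibitory kinase *Wee1* (-0.39), and the activating *Plk1* (-0.39) with its cofactor *Bora* (-0.39). *Wee1* had a mean ± SD of 37.9 ± 0.523 CPM in the 3 Ctr and 28.9 ± 0.962 CPM in the 4 *Smg6*-iKO libraries, with adjusted p = 0.00328 against Ctr and 0.0559 against Ctr + 4-OHT by edgeR. The second group controls the removal of cyclins and CDK inhibitors, namely *Cdc20* (-0.50) and *Fzr1* (-0.24), which activate the anaphase-promoting complex, *Fbxo5* (-0.32), which inhibits it, and *Skp2* (-0.21) and *Ccnf* (-0.40), which are F-box proteins. *Cdc20* had a mean ± SD of 103 ± 11.9 CPM in the 4 *Smg6*-iKO libraries, against 145 ± 10.7 CPM in the 3 Ctr and 129 ± 18.6 CPM in the 4 Ctr + 4-OHT libraries. The rest were the CDK-binding *Cks1b* (-0.31), *Mnat1* (-0.35), a subunit of the CDK-activating kinase, and *Rbl1* (-0.24), which encodes the pocket protein p107. The list held both activators and inhibitors of CDK1 among the genes that fell.

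Of 8 CDK inhibitors, 1 fell against Ctr + 4-OHT and 3 fell against Ctr, with none higher past the threshold, where 0.416% and 4.98% of all genes passed as lower. With the embryo as a block 4 were lower and 1 higher against Ctr, where that fit called 11.2% and 10.3% of all genes. The 2 calls it added, named after their values were seen, were *Cdkn2d* (p19), at -0.26 (adjusted p = 0.00296, edgeR), and *Cdkn2b* (p15), at 0.40 (adjusted p = 0.0218, edgeR). Without the block *Cdkn2b* was at 0.52 (adjusted p = 0.0684) against Ctr and at 0.69 (adjusted p = 0.095) against Ctr + 4-OHT by edgeR. *Cdkn2c*, which encodes the CDK4 and CDK6 inhibitor p18, fell in both, by 0.41 (adjusted p = 0.0409) and 0.42 (adjusted p = 0.0094) on the log2 scale by edgeR, and its mean ± SD was 43.1 ± 4.13 CPM over the 4 *Smg6*-iKO libraries, beside 57.4 ± 3.99 CPM with 4-OHT (n = 4) and 57.4 ± 1.67 CPM without it (n = 3). *Cdkn1b* (p27) and *Cdkn1c* (p57) fell against Ctr, with log2 fold changes of -0.48 (adjusted p = 0.0101) and -0.55 (adjusted p = 0.00986) by edgeR. *Cdkn1c* varied widely in Ctr + 4-OHT, from 65.2 to 129 CPM. The list's median log2 fold change was -0.19 in both comparisons.

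Of 38 other cyclins and CDKs, most of which act in transcription or outside the cycle, 36 were tested in each comparison with *Smg6*-iKO. None passed against Ctr + 4-OHT by edgeR, and against Ctr 3 were higher and 2 lower, 5 of 36 in all, where 9.25% of all genes passed. With the embryo as a block 4 were higher and 6 lower, where that fit called 21.4% of all genes. The 3 were *Cdk12*, a kinase of transcription elongation (log2 fold change 0.23, adjusted p = 0.026), *Cdkl3* (0.38, adjusted p = 0.00809) and *Cdk5r2*, a neuronal activator of CDK5 (0.54, adjusted p = 0.0444), and the 2 were *Ccna1*, the germ line cyclin A (-0.64, adjusted p = 0.0213), and *Ccng2* (-0.24, adjusted p = 0.0329), all by edgeR. *Ccna1* and *Cdk5r2* were at low levels, at 2.18 to 3.79 CPM as group means. *Ccna1* was at 2.31 to 2.80 CPM in Ctr + 4-OHT and at 3.36 to 3.48 CPM in Ctr, ranges that did not overlap, with a log2 fold change of -0.46 (adjusted p = 0.399), and *Smg6*-iKO against Ctr + 4-OHT gave -0.18 (adjusted p = 0.576) by edgeR. The list's median log2 fold change was -0.0048 against Ctr + 4-OHT and 0.049 against Ctr.

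**Figure D5:**
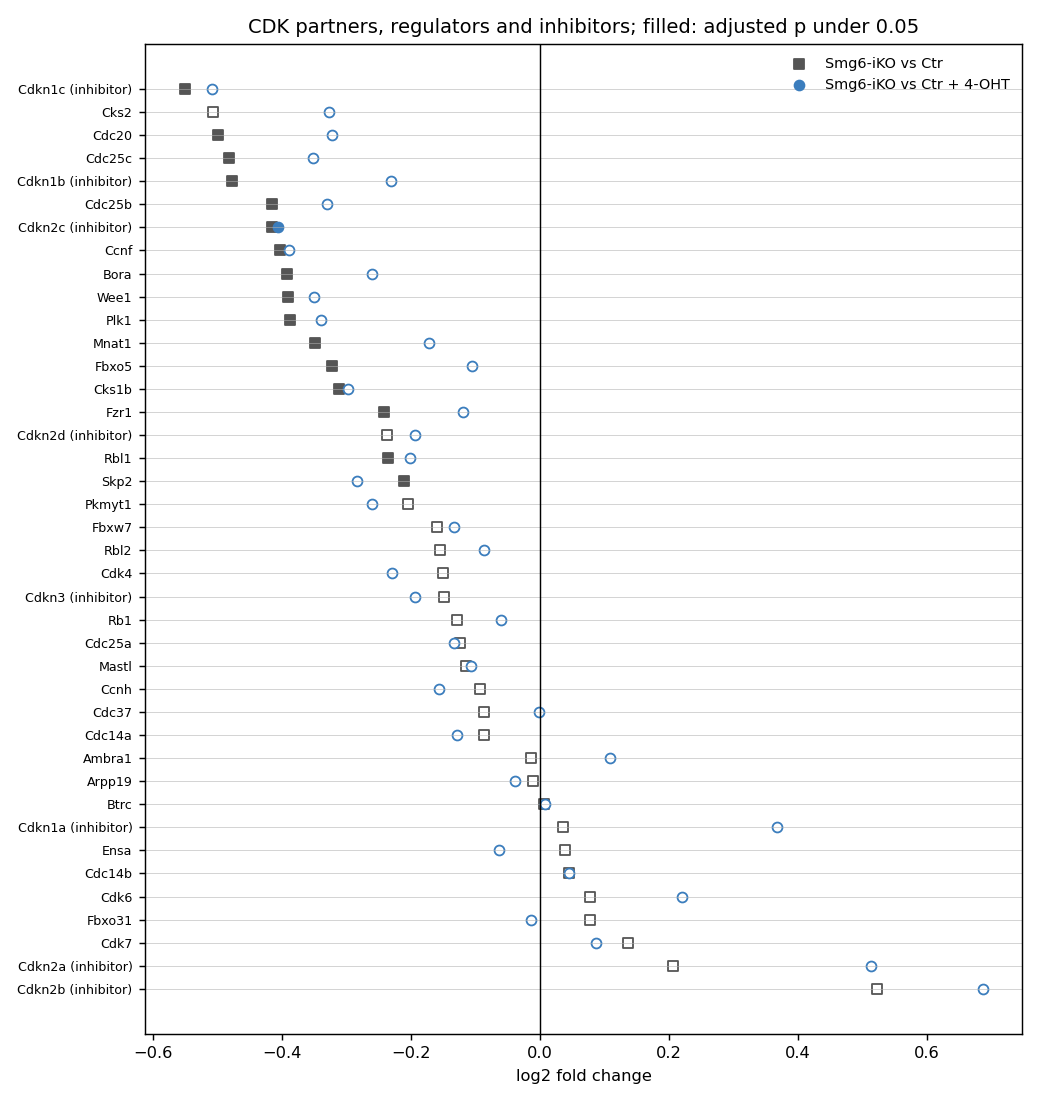
Log2 fold change (horizontal axis) of the 32 CDK partners and regulators and the 8 CDK inhibitors, for Smg6-iKO against Ctr (squares) and against Ctr + 4-OHT (circles), with filled symbols where the adjusted p is under 0.05. Against Ctr 13 regulators and 3 inhibitors are filled, all below 0, and against Ctr + 4-OHT only Cdkn2c is filled.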

How the data were processed

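The authors made stranded, ribosome-depleted total RNA libraries, read 50 bases from single ends on one pool over 3 lanes, mapped them to GRCm38 with STAR 2.5.4b and counted uniquely mapped reads per gene with featureCounts 1.5.0 on Ensembl release 92. They deposited raw counts per gene, without normalisation, and the exon length of each gene. Reads that mapped to several positions or genes were left out, which lowers genes with pseudogenes. Symbols were matched to 53620 of 53801 gene identifiers.

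Groups were taken from the sample labels. Counts were tested in R 4.3.3 with edgeR 4.0.16 (filterByExpr, TMM normalisation, quasi-likelihood test, Benjamini-Hochberg adjustment over all genes, threshold 0.05), each comparison on its own libraries. Standard errors are the log2 fold change over the square root of F, and 95% intervals are 1.96 standard errors. CPM per library, marker sums included, used TMM factors over all 11 libraries (18123 genes kept), and log2 CPM added a prior count of 2. Single genes were tested by a two-sided exact permutation test of mean log2 CPM. The code was tested on simulated data. Counting error is included in the SDs, and no libraries of one group were duplicates (chi-square per gene 11.0 to 43.0). Libraries of a group came from separate embryos.

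Ctr and *Smg6*-iKO share embryos SMH_128, SMH_132 and SMH_133 by their labels. Deviations from the group means correlated at 0.328 to 0.425 for the 3 same-embryo pairs and at -0.265 to 0.0948 for the 9 others, so an alternative fit used the embryo as a block.

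The members and lists were chosen with earlier results of these data known. Named were all 10 members, genes of the fixed lists past the threshold in either comparison with *Smg6*-iKO, *Cdk4*, *Cdk6*, *Smg6*, and the genes with the highest Pearson r to the G2/M mean (5), the G1/S mean (5) and each D-type cyclin (3), members left out. *Cdkn2b*, *Cdkn2d* and the single cell type markers given with values were named after their values were seen. Calls that the block added on the other lists are counted but not named. Alternatives were other normalisations (DESeq2 size factors, upper quartile, library size alone), no filter or a minimum of 10 counts per library, 1 fit over all 11 libraries, DESeq2 1.42.0, limma-voom 3.58.1, a loess correction for gene length (span 0.3), the block, and each library left out. Promoter windows were from RefSeq, gene positions and transcripts from GENCODE M21, both on GRCm38. Python 3.11.15 with pandas 2.3.3 and matplotlib 3.10.9 searched motifs and drew figures.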

Additional observations from a re-analysis of the deposited data

Results flagged for a closer look

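In 3 of the 20 groups of 4 libraries tested (10 genes in Ctr + 4-OHT and in *Smg6*-iKO), 1 library stood apart by Dixon's 95% critical value for 4 samples, which chance passes in about 1 group in 20. The gaps and ranges below were taken on log2 CPM, while the levels are given in CPM. *Ccna2* in *Smg6*-iKO was at 236 CPM in embryo SMH_128 and at 195 to 198 CPM in the other 3, a gap of 0.909 of the whole range. *Ccnb1* in Ctr + 4-OHT was at 79.5 CPM in embryo SMH_129 and at 64.5 to 66.1 CPM in the others, a gap of 0.886 of the range. *Cdk1* in Ctr + 4-OHT was at 198 CPM in embryo SMH_129 and at 160.3 to 166 CPM in the others, a gap of 0.833. Without embryo SMH_128 of *Smg6*-iKO 4 members passed the threshold against Ctr + 4-OHT, and without embryo SMH_129 of Ctr + 4-OHT 2 did, beside 3 with all libraries.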

How the results depend on the processing

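Against Ctr + 4-OHT, 3 members passed, and 3 or 4 passed under both other normalisations, a minimum of 10 counts, limma-voom and the length correction. The number was 6 with no filter and 6 with DESeq2, both adding *Ccnb2*, *Ccne2* and *Cdk2*. It was 5 with all 11 libraries in one fit, which added *Ccne2* and *Cdk2*, and 0 to 4 with 1 library left out. Against Ctr, 5 members passed, 4 to 6 under the alternatives without the block, 8 with the replicate block, 8 with the replicate block and the length correction, and 3 to 5 with 1 library left out. Between the control groups 0 passed under every alternative run. Over all genes 206 passed against Ctr + 4-OHT, 418 with no filter, 484 with all libraries in one fit, 873 with DESeq2 and 66 to 174 with 1 library left out. Against Ctr 1663 passed, 2714 with no filter, 796 with all libraries in one fit, 3854 with the replicate block and 570 to 2524 with 1 library left out. Between the controls 39 passed, 198 with no filter, 169 with DESeq2 and 5 to 54 with 1 library left out, lowest without embryo SMH_128 or SMH_132 of Ctr. The replicate block changed no other member's call than those of *Ccnd1*, *Ccne1* and *Ccne2*. Log2 fold changes that changed sign were all near 0: *Ccnd2* against Ctr + 4-OHT (-0.021 to 0.081 with 1 library left out) and against Ctr (-0.013 with the block and the length correction), and, between the controls, *Ccna2* (0.0035 with the upper quartile, 0.0062 with no filter, -0.082 to 0.039 with 1 library left out, and 0.0085 as a difference of mean log2 CPM on library size alone), *Ccnb1* (-0.10 to 0.0099), *Cdk1* (-0.087 to 0.020) and *Ccne1* (-0.16 to 0.026). With levels scaled to library size alone, the exact permutation p against Ctr was 0.0571 for *Ccna2* and 0.0857 for *Ccne2* (0.0286 each with TMM), and 0.0286 for *Ccnd1* (0.0571 with TMM). The cause of these changes was not tested. In the main edgeR fit, falls of the size of the members' own did not always pass, as for *Ccne2* (-0.48) and *Ccnb2* (-0.39) against Ctr + 4-OHT, while DESeq2 called both on the same libraries.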
